A study of Mus musculus with 55 samples.

Results

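The comparison set islets of βEedKO mice against islets of wild-type mice at 25 weeks of age, in 5 bulk RNA-seq libraries of the 55 samples and 16 bulk libraries of the series. They were chosen by the labels: βEedKO replicates 2 and 3, and wild-type replicates 2, 3 and 4. The study asked how islets change when their β cells lose Eed. It reports that every βEedKO mouse was overtly diabetic by 25 weeks, and that 8-week βEedKO mice tolerated glucose. Genotype and blood glucose were thus not separated in this comparison. All animals were males of strain C57B6/J. In βEedKO, labelled Eed -/-, a Cre transgene under a rat insulin promoter (RIP-Cre) removes a floxed Eed in β cells, and the other islet cells keep the gene. Whole islets were picked by hand after collagenase digestion and held in culture medium before RNA extraction. At this age each βEedKO library holds islets pooled from several animals and each other library islets of fewer animals, per the study's methods. Libraries labelled heterozygous, of the same age (2 libraries), were used only where named. The 8-week libraries (3 wild type and 3 βEedKO) shared the expression filter, the scaling and the main fit with the 25-week libraries. They thus entered the SEs and p-values of the 25-week comparison, and their own levels are given only where named. No label says how the libraries of a group relate beyond their number. The p-values thus measure the spread between the libraries of the fit, those of 8 weeks included.

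Eed is the subunit of Polycomb repressive complex 2 (PRC2) that binds trimethylated histone H3 lysine 27 and is needed for the complex to write this mark. The mark keeps developmental genes silent in cells that do not use them. Many such promoters also carry H3 lysine 4 trimethylation and are called bivalent. β cells sense glucose through uptake, phosphorylation and mitochondrial metabolism, which closes potassium channels, opens calcium channels and releases insulin granules.

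The 5 libraries held 4645393 to 17308262 counted reads. Acinar genes, which encode the digestive enzymes of the exocrine pancreas, took 43.0% of the counts in βEedKO replicate 2 and 2.59% in βEedKO replicate 3, and 12.4%, 4.64% and 25.7% in wild-type replicates 2, 3 and 4. The βEedKO libraries were the highest and the lowest of the 5, on either side of wild type, and values below are given for each library. Values are in CPM, counts scaled to a common library total, after TMM normalization. TMM multiplies each library total by 1 factor and leaves differences in acinar share in place. The factors were 0.772 and 1.56 in βEedKO replicates 2 and 3 and 0.979, 1.11 and 0.858 in wild-type replicates 2, 3 and 4. A fall in whole islets cannot tell fewer cells of a type from less RNA per cell. Eed (ENSMUSG00000030619.9, chromosome 7 from 89954654 to 89980983) had 15.4 and 13.7 CPM in βEedKO and 28.6, 22.3 and 19.4 CPM in wild type. Both βEedKO libraries lay below the 3 wild-type libraries, and the difference did not pass (log2 fold change -0.69 ± 0.25 (SE), edgeR adjusted p = 0.142). Hormone genes that define islets were present in all 5 libraries. Ins1 had 2109.7 and 2878 CPM in βEedKO and 47851, 33258 and 26945 CPM in wild type, and Gcg, the glucagon gene of α cells, had 11716 and 10894 CPM in βEedKO and 7730.2, 8960.5 and 8263 CPM in wild type.

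**Figure D1:**
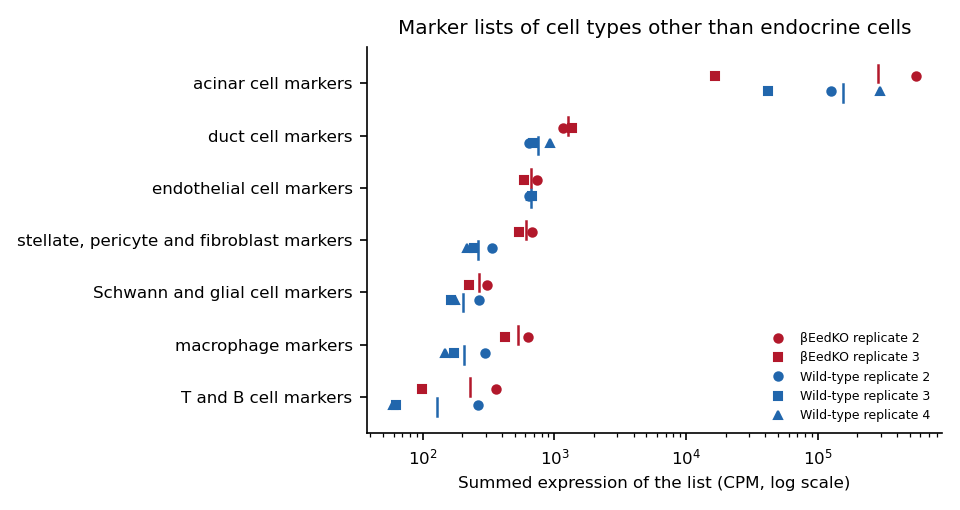
Summed CPM (log scale) of marker lists of 7 cell types in each library at 25 weeks, 1 symbol per library, with the group mean as a vertical bar. The acinar sum of βEedKO replicate 2 was 556889 CPM and that of replicate 3 was 16608 CPM, outside the wild-type range on both sides.

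Across the 18685 genes tested, 856 were called higher (4.58%) and 378 lower (2.02%) in βEedKO, 6.6% in all, with adjusted p under 0.05 by the quasi-likelihood test of edgeR. The counts higher and lower were 390 and 87 without βEedKO replicate 2, 279 and 113 without βEedKO replicate 3, and 345 and 142 or 376 and 170 without wild-type replicate 3 or 4. The shares of genes called were then 2.37%, 1.98%, 2.62% and 2.92%, against 6.09% without wild-type replicate 2, 5.5% with the replicate block and 11.2% by DESeq2. Scaling by library size alone gave 805 higher and 79 lower. The median log2 fold change of all genes was 0.03, and 0.27 with library size alone. For 276 genes, 211 higher and 65 lower, the call also passed without any 1 of the 5 libraries and with the replicate number as a block. In these genes no βEedKO library lay among the wild-type values, and a group mean reached 5 CPM. They are named stable calls below, and they were 1.48% of the genes tested. Both heterozygous libraries of this age lay below both βEedKO libraries in 211 of the 211 stable rises and above them in 65 of the 65 stable falls, on values scaled over all 16 libraries. The shares were 34.1% and 27.8% over all genes tested. They were 91.1% and 87.1% over genes with both βEedKO libraries above, or below, all wild-type libraries, a condition that the stable calls meet by their choice. In the 8-week libraries, 196 of the 211 stable rises had a higher and 60 of the 65 stable falls a lower level in βEedKO. At that age 50.4% of all genes tested were higher. These libraries are other samples, but they entered the fit that made the stable calls. A gene with almost no reads in wild type is also easily higher in βEedKO, so these shares are descriptions. Of the stable calls, 42 rises and 0 falls were called by edgeR at 8 weeks, where 0.428% of all genes were called higher and 0.0054% lower. The difference between the effects at the ages passed the test for 37 genes (0.198%), of which 35 were stable calls, but these were chosen for their effect at 25 weeks, so that nothing follows from that share. With the replicate block 2 genes passed. A gene with few reads in wild type could pass the expression filter through βEedKO alone and then had to be higher, so that counts within gene lists below are descriptions of the genes that passed.

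The stretches of 250 bases before the start of 6 genes show the range of promoters on both sides of the comparison. Gad2 and Gad1 are shown as a pair because they encode the 2 enzymes that make the transmitter GABA and moved in opposite directions. Slc32a1 and Dlk1 rose and had state M, a bivalent state, at their start sites in wild-type islets. G6pc2 and Gjd2 fell and had states X and A there. Sequences are from RefSeq on GRCm38.p6, 5′ to 3′ on the strand of the gene, in lower case, with each CG (the dinucleotide that can be methylated in mammalian DNA) in capitals.
Slc32a1: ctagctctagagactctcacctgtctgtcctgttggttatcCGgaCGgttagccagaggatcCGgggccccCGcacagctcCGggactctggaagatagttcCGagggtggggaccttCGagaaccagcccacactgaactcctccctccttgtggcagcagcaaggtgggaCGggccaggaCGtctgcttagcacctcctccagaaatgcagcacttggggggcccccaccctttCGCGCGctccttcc
Gad2: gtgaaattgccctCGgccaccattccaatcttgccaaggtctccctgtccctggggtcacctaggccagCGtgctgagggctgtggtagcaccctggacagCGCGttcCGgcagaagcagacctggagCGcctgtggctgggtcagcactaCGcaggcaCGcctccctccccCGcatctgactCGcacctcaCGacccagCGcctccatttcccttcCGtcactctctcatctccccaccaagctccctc
Dlk1: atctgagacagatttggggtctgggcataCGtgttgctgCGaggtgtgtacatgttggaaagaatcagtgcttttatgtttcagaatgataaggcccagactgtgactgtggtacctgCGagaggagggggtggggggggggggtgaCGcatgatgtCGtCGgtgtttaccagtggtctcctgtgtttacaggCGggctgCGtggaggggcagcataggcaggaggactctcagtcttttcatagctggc
Gad1: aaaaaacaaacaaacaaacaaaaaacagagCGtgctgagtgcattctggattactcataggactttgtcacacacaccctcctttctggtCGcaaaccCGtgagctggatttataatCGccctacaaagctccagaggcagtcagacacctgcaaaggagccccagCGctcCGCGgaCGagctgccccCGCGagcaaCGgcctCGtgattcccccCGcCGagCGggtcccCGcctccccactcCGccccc
G6pc2: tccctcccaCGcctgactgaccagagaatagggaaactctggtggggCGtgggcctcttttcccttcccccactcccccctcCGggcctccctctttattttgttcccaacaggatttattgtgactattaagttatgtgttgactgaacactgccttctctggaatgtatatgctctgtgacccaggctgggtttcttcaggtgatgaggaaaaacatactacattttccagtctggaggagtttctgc
Gjd2: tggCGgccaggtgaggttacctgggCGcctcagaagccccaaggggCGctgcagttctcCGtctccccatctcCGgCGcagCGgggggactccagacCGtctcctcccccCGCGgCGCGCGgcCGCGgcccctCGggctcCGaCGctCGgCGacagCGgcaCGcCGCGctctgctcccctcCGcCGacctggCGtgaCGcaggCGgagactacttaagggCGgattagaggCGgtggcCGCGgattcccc
They lie at chr2:158610508-158610757 for Slc32a1, chr2:22622077-22622326 for Gad2, chr12:109452573-109452822 for Dlk1, chr2:70561879-70562128 for Gad1 and chr2:69210823-69211072 for G6pc2, on the plus strand, and at chr2:114013620-114013869 on the minus strand for Gjd2. The letters CG occurred 12, 13 and 8 times before Slc32a1, Gad2 and Dlk1, which rose. They occurred 17, 3 and 33 times before Gad1, G6pc2 and Gjd2, which fell. Over the 12882 tested genes with such a stretch the median was 14 and 98.4% held the letters at least once (the same on both strands).

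The 10 largest stable rises, with a fixed set of transcription factor families (Hox, Pax, Fox, Sox and others) set aside, were genes with 0 reads in all wild-type libraries of this age. They were Slc32a1, Sim2, Sp8, Vax2os, Pou3f3, En2, Pou4f2, Bsx, En1 and Rnf207. Slc32a1 (ENSMUSG00000037771.11, chromosome 2 from 158610767 to 158615748) encodes the transporter that loads GABA and glycine into synaptic vesicles, and had 23.6 and 19.3 CPM in the 2 βEedKO libraries. Taking 3 reads in the whole wild-type group as the lower limit, it was at least 211-fold higher. Sim2, a factor of the bHLH-PAS family, had 18 and 23.7 CPM (at least 222-fold higher), and Pou3f3, a POU factor of the developing brain, had 12.4 and 13.6 CPM (at least 134-fold higher). The engrailed genes En1 and En2, which pattern midbrain and hindbrain, had 8.99 and 9.49 CPM and 12.6 and 12.2 CPM. Of the 10, Sim2, Sp8, Pou3f3, En2, Pou4f2, Bsx and En1 encode transcription factors of families that were not set aside. Vax2os lies antisense to Vax2, and whether counting used strand is not stated. Floors cover counting error only.

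The 10 largest stable falls were Cib3, T2, Trpm5, Msln, Frzb, Tmem215, G6pc2, Gad1, Slc30a8 and Ppp1r1a. Cib3, a calcium-binding protein, had 0.30 and 0.271 CPM in βEedKO and 46, 22.5 and 20.4 CPM in wild type (log2 fold change -6.66 ± 0.54 (SE), edgeR adjusted p = 0.00017). Trpm5, a cation channel opened by intracellular calcium, had 1.8 and 3.37 CPM in βEedKO and 181, 106 and 95.2 CPM in wild type. Both βEedKO libraries lay far below every wild-type library for these genes. Frzb, a secreted antagonist of Wnt proteins, had 19.4 and 20.6 CPM in βEedKO and 321, 251 and 221 CPM in wild type (log2 fold change -3.72 ± 0.35 (SE), edgeR adjusted p = 0.000356). Ppp1r1a encodes an inhibitor of protein phosphatase 1 that is switched on by protein kinase A, and had 21.6 and 20.6 CPM in βEedKO and 271, 184 and 169.6 CPM in wild type (log2 fold change -3.3 ± 0.40 (SE), edgeR adjusted p = 0.00139).

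Many ion channel genes and genes of nerve cells rose. Over 11 lists of such genes 246 of 309 counted genes passed the expression filter, and 45 were called higher and 3 lower (19.5%, against 6.6% of all genes). These counts were 27 and 1 without βEedKO replicate 2, 20 and 1 without βEedKO replicate 3, 40 and 4, 25 and 1 and 25 and 1 without wild-type replicates 2, 3 and 4, and 29 and 7 with the replicate block. Among voltage-gated potassium channels, which repolarise the membrane, 5 of 33 tested genes were called, each higher (3 to 5 without 1 library), with a median log2 fold change of 1.31 (0.84 without βEedKO replicate 2) against 0.03 over all genes. Kcnc1 (ENSMUSG00000058975.6, chromosome 7 from 46396497 to 46438704), a fast channel of spiking neurons, had 15.3 and 22 CPM in βEedKO and 0.881, 0.534 and 0.466 CPM in wild type (log2 fold change 4.97 ± 0.60 (SE), edgeR adjusted p = 0.00142). The lower βEedKO library was several times above the highest wild-type library. Kcnc2 rose by 2.84 on the log2 scale. Among inward-rectifier and two-pore potassium channels, which set the resting potential, 3 of 21 tested genes were called higher and 1 lower (1 to 2 higher and 0 to 1 lower without 1 library), with a median log2 fold change of 1.21. The fall, Kcnj12, had 1.8 and 1.32 CPM in βEedKO and 9.03, 20.3 and 16.9 CPM in wild type (log2 fold change -3.32 ± 0.75 (SE), edgeR adjusted p = 0.0272). Kcnj12 was not called without βEedKO replicate 2 (0.141), without βEedKO replicate 3 (0.197), without wild-type replicate 3 (0.0902) and without wild-type replicate 4 (0.0733).

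Calcium channels shape insulin release in β cells, where L-type channels carry most of the current. Among these channels and their subunits, 6 of 23 tested genes were called, each higher (3 to 5 without 1 library), with a median log2 fold change of 0.74 (1.29 without wild-type replicate 2), and 3 of the rises were stable calls. Cacna1g, the pore of a T-type channel that opens near the resting potential, had 25.3 and 20.1 CPM in βEedKO and 2.2, 2.59 and 2.1 CPM in wild type (log2 fold change 3.29 ± 0.45 (SE), edgeR adjusted p = 0.00251). Cacna2d2 encodes an accessory subunit that brings channels to the surface, and had 42.4 and 56.9 CPM in βEedKO and 3.52, 4.42 and 3.96 CPM in wild type (log2 fold change 3.63 ± 0.47 (SE), edgeR adjusted p = 0.00204). Cacng7, another accessory subunit, had 21.8 and 23.7 CPM in βEedKO and 1.1, 0.839 and 0.855 CPM in wild type (log2 fold change 4.63 ± 0.34 (SE), edgeR adjusted p = 0.00017). The groups did not overlap for these 3 genes, and the lower βEedKO library was several times the highest wild-type library. Sodium channels start action potentials, and among them 4 of 13 tested genes were called, each higher (0 to 2 without 1 library), with a median log2 fold change of 1.38. No gene of the list (0) passed in edgeR without βEedKO replicate 2 or 3 or wild-type replicate 4, while with all libraries 7 of the 13 had an unadjusted p under 0.05 and DESeq2 called 5.

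**Figure D2:**
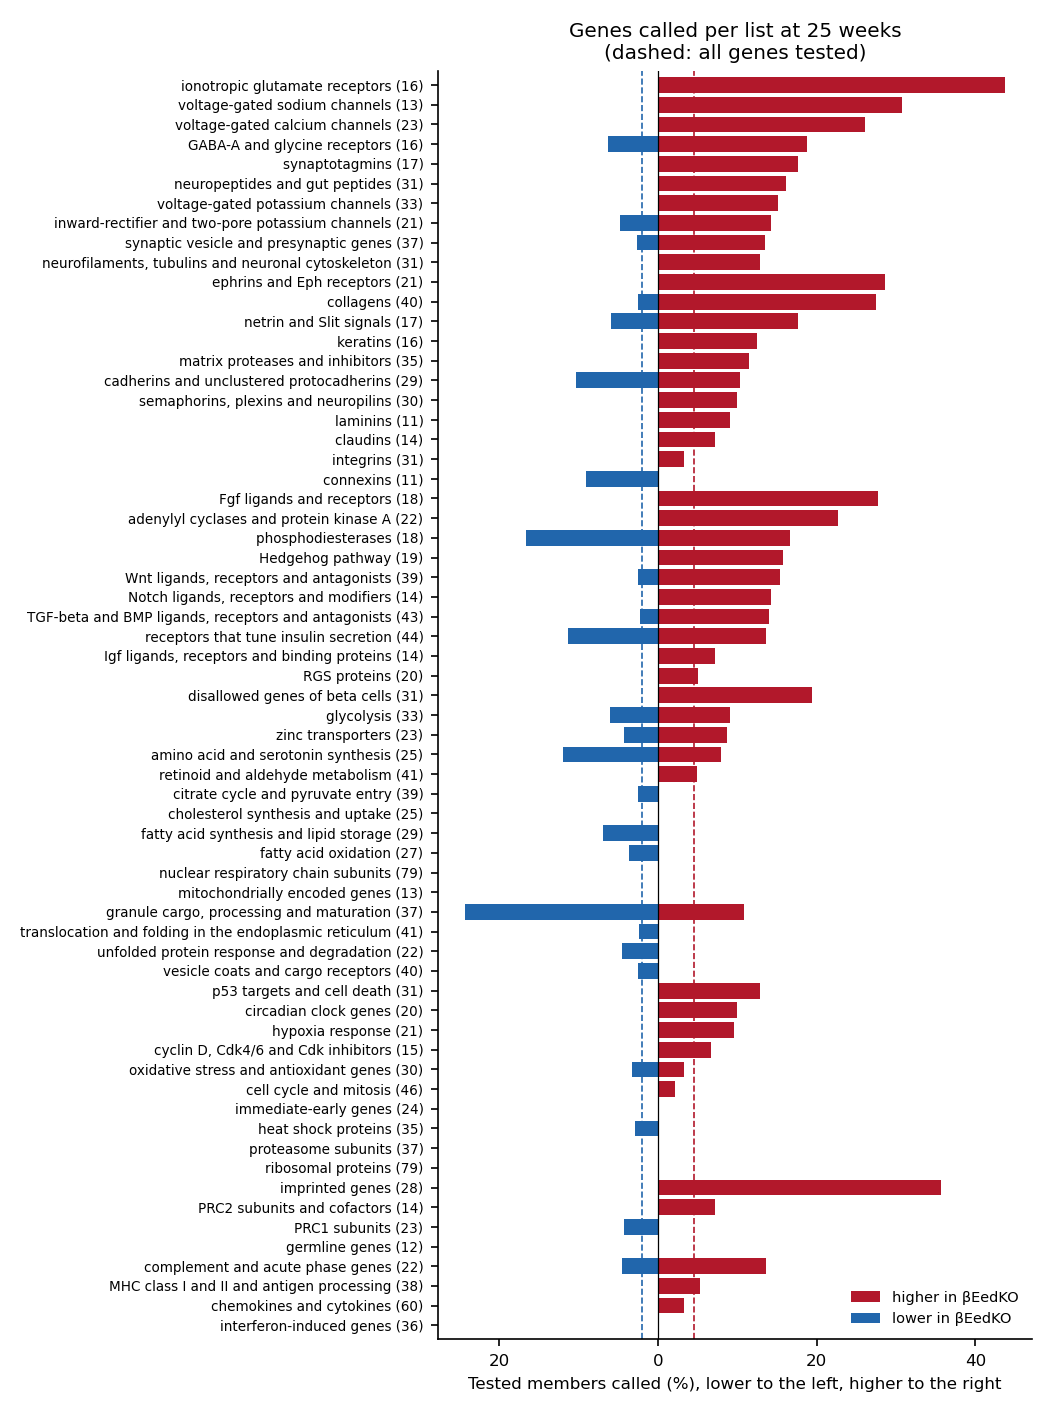
Share of the tested members of gene lists called higher (red, right) or lower (blue, left) in βEedKO at 25 weeks. The number tested is in parentheses, and dashed lines mark the shares of all genes, 4.58% and 2.02%. Lists of cell type markers and the lists with the fewest tested members are left out. Ionotropic glutamate receptors had 43.8% higher, imprinted genes 35.7% higher and granule genes 24.3% lower.

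Among receptors and enzymes of fast transmission, glutamate receptor genes were called higher, and calls of genes of the inhibitory side went both ways. Nicotinic acetylcholine receptors, also excitatory, had 0 of 8 tested genes called by edgeR, and DESeq2 called 0. In that list 1 gene had an unadjusted p under 0.05 in edgeR, and the median log2 fold change was 1.1 (0.65 without βEedKO replicate 3). Among ionotropic glutamate receptors, 7 of 16 tested genes were called, each higher (4 to 6 without 1 library), with a median log2 fold change of 2.51. The kainate receptor gene Grik3 had 73.2 and 68 CPM in βEedKO and 3.3, 0.458 and 1.01 CPM in wild type (log2 fold change 5.69 ± 0.81 (SE), edgeR adjusted p = 0.00334). Gria1, an AMPA receptor subunit, had 7.19 and 9.26 CPM in βEedKO and 1 read in wild type, 261 times the wild-type level (95% interval from counting error 46.5 to 10343). Grid1, a delta receptor that organises synapses, had 3 reads in wild type and 24.1 and 21.5 CPM in βEedKO, 228 times the wild-type level (95% interval from counting error 77.6 to 1106). For GABA-A and glycine receptors, 3 of 16 tested genes were called higher and 1 lower (1 to 2 higher and 0 to 1 lower without 1 library), with a median log2 fold change of 2.22. The fold change was above 0 for 14 of the 16. None of these calls was stable, and with the replicate block 0 genes of the list were called higher and 1 lower. Gabra3 had 0 reads in wild type and 2.55 and 2.36 CPM in βEedKO (at least 24.7-fold higher; edgeR adjusted p = 0.00382). Gabra3 was not called with the replicate block (0.0635). The glycine receptor subunit gene Glrb had 16.3 and 21.4 CPM in βEedKO and 39, 43.8 and 37.3 CPM in wild type (log2 fold change -1.08 ± 0.24 (SE), edgeR adjusted p = 0.0266). Glrb was not called without βEedKO replicate 2 (0.208), without βEedKO replicate 3 (0.086), without wild-type replicate 3 (0.105), without wild-type replicate 4 (0.0674), with library size alone (0.39), with block and library size alone (0.137) and without the expression filter (0.064). The 2 enzymes of GABA synthesis moved in opposite directions. Gad1 (ENSMUSG00000070880.10, chromosome 2 from 70553072 to 70602014) had 14.7 and 22.5 CPM in βEedKO and 168, 222 and 201 CPM in wild type (log2 fold change -3.4 ± 0.28 (SE), edgeR adjusted p = 0.00017). Gad2 (ENSMUSG00000026787.3, chromosome 2 from 22622205 to 22693874) had 13.1 and 17.9 CPM in βEedKO and 0.22, 0.229 and 0.0777 CPM in wild type (log2 fold change 6.48 ± 1.01 (SE), edgeR adjusted p = 0.00451). Wild-type islets held almost none of the Gad2 transcript, and each βEedKO library was far above them. Mouse β cells are known to make GABA with the Gad1 product.

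In the release machinery of vesicles, 5 of 37 tested genes were called higher and 1 lower (2 to 4 higher and 1 lower without 1 library), with a median log2 fold change of -0.12 (-0.21 to 0.06 without 1 library). Nrxn2, a presynaptic adhesion protein, had 33 and 32.2 CPM in βEedKO and 4.18, 1.14 and 2.18 CPM in wild type (log2 fold change 3.78 ± 0.59 (SE), edgeR adjusted p = 0.00448), and Rab3c, a small GTPase of secretory vesicles, had 49.8 and 44.8 CPM in βEedKO and 11.9, 5.11 and 7.31 CPM in wild type (log2 fold change 2.57 ± 0.35 (SE), edgeR adjusted p = 0.00251). Rims3, a protein of the release site, went the other way, with 39.1 and 42.7 CPM in βEedKO and 158, 212 and 196 CPM in wild type (log2 fold change -2.21 ± 0.22 (SE), edgeR adjusted p = 0.000522). No overlap was seen between the groups in any of these genes. Among synaptotagmins, the calcium sensors of release, 3 of 17 tested genes were called, each higher (0 to 2 without 1 library), with a median log2 fold change of 0.06 (-0.04 to 0.27 without 1 library). Syt5 had 73.1 and 90.5 CPM in βEedKO and 17.6, 27.5 and 20.5 CPM in wild type (log2 fold change 1.9 ± 0.33 (SE), edgeR adjusted p = 0.00804). Syt5 was not called without βEedKO replicate 3 (0.0732). Among neuropeptide and gut peptide genes, of which 31 of 55 passed the filter, 5 of 31 tested genes were called, each higher (4 to 5 without 1 library), with a median log2 fold change of 1.79 (1.62 with genes at 0 reads in wild type set to their bound). Cartpt, the precursor of the CART peptide of hypothalamus and islets, had 87.7 and 113 CPM in βEedKO and 1.54, 1.3 and 0.622 CPM in wild type (log2 fold change 6.51 ± 0.52 (SE), edgeR adjusted p = 0.00017). Pdyn, the dynorphin precursor, had 105 and 182 CPM in βEedKO and 8.14, 18.8 and 11.8 CPM in wild type (log2 fold change 3.46 ± 0.51 (SE), edgeR adjusted p = 0.00359), and Calca, the gene of calcitonin and CGRP, had 7.49 and 7.28 CPM in βEedKO and 0.66, 0.153 and 0.389 CPM in wild type. Both βEedKO libraries were above all wild-type libraries for the 3 peptides. In the neuronal cytoskeleton 4 of 31 tested genes were called, each higher (1 to 8 without 1 library), with a median log2 fold change of 0.87 (1.43 without wild-type replicate 2). Dpysl5, a protein of growing axons, was the stable call, at 2.4 on the log2 scale.

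**Figure D3:**
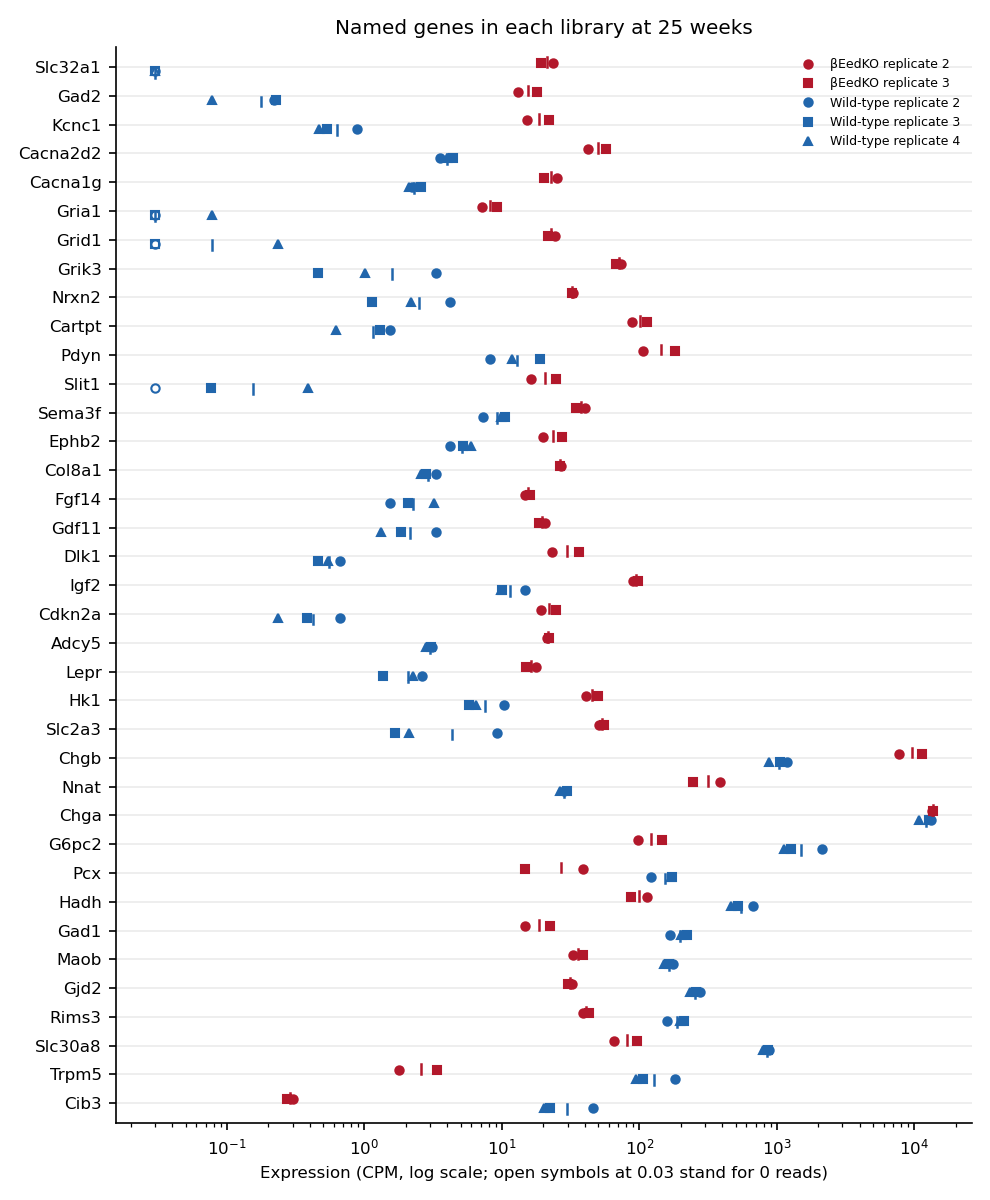
CPM (log scale) of 37 named genes in each library at 25 weeks, 1 symbol per library, with group means as vertical bars and open symbols for 0 reads. The groups of Chga lie within 13685 and 10748 CPM; the others lie further apart, from Slc32a1 (0 reads in wild type) to Cib3 (0.3 and 0.271 CPM in βEedKO).

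Genes of guidance cues, adhesion proteins and matrix were called mostly higher. Over 11 lists 255 of 331 counted genes passed the expression filter, and 35 were called higher and 6 lower (16.1%, against 6.6% of all genes), and the counts were 16 and 2 without βEedKO replicate 2, 10 and 4 without βEedKO replicate 3, 25 and 8, 12 and 5 and 13 and 5 without wild-type replicates 2, 3 and 4, and 34 and 7 with the replicate block. The guidance cue gene Slit1, which had 16.3 and 24.6 CPM in βEedKO and 0, 0.0763 and 0.389 CPM in wild type, rose (log2 fold change 6.72 ± 0.77 (SE), edgeR adjusted p = 0.0011), while Robo2, a Slit receptor, had 34.2 and 44.1 CPM in βEedKO and 128, 134 and 119.9 CPM in wild type (log2 fold change -1.7 ± 0.26 (SE), edgeR adjusted p = 0.00403). Robo2 was not called without βEedKO replicate 2 (0.0562) and with library size alone (0.111). Among ephrins and Eph receptors, which sort cells by contact, 6 of 21 tested genes were called, each higher (3 to 6 without 1 library), with a median log2 fold change of 1.48, with Ephb2 as the stable call (19.9 and 27.5 CPM in βEedKO and 4.18, 5.19 and 5.99 CPM in wild type; log2 fold change 2.2 ± 0.34 (SE), edgeR adjusted p = 0.00425). Among semaphorins and their receptors, 3 of 30 tested genes were called, each higher (2 without 1 library), with a median log2 fold change of 0.93. The stable calls were Sema3f (40.3 and 34.4 CPM in βEedKO and 7.26, 10.5 and 9.79 CPM in wild type) and the receptor Plxnc1 (9.21 and 7.17 CPM in βEedKO and 0.881, 0.61 and 1.09 CPM in wild type). Among collagens, 11 of 40 tested genes were called higher and 1 lower (2 to 8 higher and 0 to 1 lower without 1 library), with a median log2 fold change of 1.5. The network-forming Col8a1 had 26.9 and 26.4 CPM in βEedKO and 3.3, 2.82 and 2.57 CPM in wild type (log2 fold change 3.21 ± 0.50 (SE), edgeR adjusted p = 0.00456) and the cartilage collagen Col9a2 had 25 and 26.1 CPM in βEedKO and 8.37, 7.47 and 6.14 CPM in wild type (log2 fold change 1.81 ± 0.22 (SE), edgeR adjusted p = 0.00137). Stellate and fibroblast markers, summed, were 680.0 and 535 CPM in βEedKO and 335, 244 and 215 CPM in wild type, so that these cells' genes moved with the collagens (16 of the 17 had both βEedKO libraries above wild type, as had 22.9% of all genes). The marker list itself holds the collagen gene Col1a1, so that it is not separate from the collagens. The part of these cells in the rise was not tested. The 1 collagen called lower, Col6a6, had 18.9 and 21.8 CPM in βEedKO and 140.0, 213 and 191 CPM in wild type (log2 fold change -3.15 ± 0.48 (SE), edgeR adjusted p = 0.0042). Col6a6 was not called without βEedKO replicate 2 (0.0516).

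Cadherins, which hold like cells together, moved both ways, and 3 of 29 tested genes were called higher and 3 lower (0 to 1 higher and 1 to 3 lower without 1 library), with a median log2 fold change of 0.93 (0.57 without βEedKO replicate 2 and 1.4 without wild-type replicate 2). Cdh7 had 0.974 and 0.62 CPM in βEedKO and 10.1, 17 and 12.1 CPM in wild type (log2 fold change -4.05 ± 0.63 (SE), edgeR adjusted p = 0.00432). Cdh7 was not called without βEedKO replicate 3 (0.0629). Cdh8 had 12.7 and 20.2 CPM in βEedKO and 37, 60.5 and 53.3 CPM in wild type (log2 fold change -1.61 ± 0.29 (SE), edgeR adjusted p = 0.00833). Cdh8 was not called without βEedKO replicate 2 (0.0929) and with library size alone (0.171). Cdh23, a cadherin of sensory hair cells, had 12 and 19.4 CPM in βEedKO and 0.66, 1.22 and 1.01 CPM in wild type (log2 fold change 3.97 ± 0.64 (SE), edgeR adjusted p = 0.00519). Cdh23 was not called without βEedKO replicate 3 (0.0536). Both βEedKO libraries of Cdh7 and Cdh8 were below wild type, and those of Cdh23 above. The gap junction gene Gjd2 (ENSMUSG00000068615.4, chromosome 2 from 114009601 to 114013619) encodes connexin 36, which couples β cells electrically. It had 32.6 and 30.3 CPM in βEedKO and 274, 259.6 and 233 CPM in wild type. Wild-type libraries kept within a narrow range and both βEedKO libraries were near one value (log2 fold change -3.02 ± 0.27 (SE), edgeR adjusted p = 0.000219). Among connexins, 1 of 11 tested genes was called, lower (1 without 1 library), with a median log2 fold change of 1.34, so that the direction of Gjd2 was opposite to the median of its list.

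Secreted growth factor pathways, which pattern embryos and are mostly quiet in adult islets, also held called genes. Over 10 lists of signalling genes 251 of 300 counted genes passed the expression filter, and 38 were called higher and 10 lower (19.1%, against 6.6% of all genes), and the counts were 18 and 2 without βEedKO replicate 2, 13 and 5 without βEedKO replicate 3, 26 and 12, 16 and 4 and 15 and 6 without wild-type replicates 2, 3 and 4, and 22 and 13 with the replicate block. Among Fgf ligands and receptors, 5 of 18 tested genes were called, each higher (1 to 3 without 1 library), with a median log2 fold change of 1.41. Fgf14, an intracellular member that binds sodium channels, had 14.8 and 16.1 CPM in βEedKO and 1.54, 2.06 and 3.19 CPM in wild type (log2 fold change 2.74 ± 0.41 (SE), edgeR adjusted p = 0.00382). In the Wnt list 6 of 39 tested genes were called higher and 1 lower (1 to 7 higher and 0 to 1 lower without 1 library), with a median log2 fold change of 1.56. The receptor Fzd1 had 20.7 and 21.3 CPM in βEedKO and 4.18, 2.44 and 1.71 CPM in wild type (log2 fold change 2.96 ± 0.43 (SE), edgeR adjusted p = 0.00359). Wnt4, a Wnt ligand expressed in wild-type islets, had 51.9 and 77.2 CPM in βEedKO and 209.6, 205 and 172 CPM in wild type (log2 fold change -1.6 ± 0.25 (SE), edgeR adjusted p = 0.00468). Wnt4 was not called without βEedKO replicate 2 (0.0578) and with library size alone (0.155). Among TGF-β and BMP genes 6 of 43 tested genes were called higher and 1 lower (2 to 3 higher and 0 to 1 lower without 1 library), with a median log2 fold change of 0.96 (0.55 without βEedKO replicate 3). The ligands Gdf11 (20.5 and 18.6 CPM in βEedKO and 3.3, 1.83 and 1.32 CPM in wild type) and Gdf10 (21.3 and 16 CPM in βEedKO and 1.98, 0.61 and 1.71 CPM in wild type) were the stable rises. Bmp1, a protease that processes procollagen and BMP antagonists, had 37.3 and 43.2 CPM in βEedKO and 94, 109 and 94.4 CPM in wild type. The groups did not overlap (log2 fold change -1.3 ± 0.26 (SE), edgeR adjusted p = 0.0168), and the call was lost without βEedKO replicate 2 (0.145), without βEedKO replicate 3 (0.0962), without wild-type replicate 3 (0.0715), without wild-type replicate 4 (0.0501) and with library size alone (0.235).

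Ligands that act on neighbouring cells were among the rises. In the Notch list 2 of 14 tested genes were called, each higher (1 without 1 library), with a median log2 fold change of 0.90. Dlk1 (ENSMUSG00000040856.17, chromosome 12 from 109452823 to 109463336), a Notch-like ligand of fetal tissues, had 23.3 and 36.1 CPM in βEedKO and 0.66, 0.458 and 0.544 CPM in wild type (log2 fold change 5.78 ± 0.75 (SE), edgeR adjusted p = 0.002). Shh, the Hedgehog ligand, had 3.75 and 3.1 CPM in βEedKO and 1 read in wild type, 101 times the wild-type level (95% interval from counting error 17.9 to 4032). The edgeR adjusted p of Shh was 0.0102, and it was not called without βEedKO replicate 2 (0.0601), without βEedKO replicate 3 (0.0629) and with the replicate block (0.0699). In the Hedgehog list 3 of 19 tested genes were called, each higher (0 to 2 without 1 library), with a median log2 fold change of 1.48. Igf2 (ENSMUSG00000048583.16, chromosome 7 from 142650766 to 142666816), a fetal growth factor of the insulin family, had 90.4 and 98.2 CPM in βEedKO and 14.7, 9.99 and 9.79 CPM in wild type (log2 fold change 3.05 ± 0.25 (SE), edgeR adjusted p = 0.000172). Both βEedKO libraries were close together for Igf2, several times above wild type. In the Igf list 1 of 14 tested genes was called, higher (1 to 2 without 1 library), with a median log2 fold change of 0.86 (0.52 without βEedKO replicate 2 and 1.33 without βEedKO replicate 3), and the called gene was Igf2.

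Cyclic AMP amplifies insulin release, and genes that make it, break it down or respond to it changed in both directions. Among adenylyl cyclases and protein kinase A subunits, 5 of 22 tested genes were called, each higher (3 to 5 without 1 library), with a median log2 fold change of 0.17 (-0.06 to 0.24 without 1 library). The calcium-stimulated cyclase Adcy1 had 19.5 and 25.4 CPM in βEedKO and 2.42, 3.2 and 2.33 CPM in wild type (log2 fold change 3.07 ± 0.47 (SE), edgeR adjusted p = 0.00427), Adcy2 had 20.9 and 21.8 CPM in βEedKO and 3.3, 1.07 and 1.55 CPM in wild type and Adcy5 had 21.2 and 21.9 CPM in βEedKO and 3.08, 3.05 and 2.8 CPM in wild type. In each the wild-type libraries were at a few CPM and both βEedKO libraries several times higher. Among phosphodiesterases, which degrade cyclic nucleotides, 3 of 18 tested genes were called higher and 3 lower (1 to 2 higher and 0 to 3 lower without 1 library), with a median log2 fold change of 0.64. Pde1b, a calcium-dependent enzyme, had 19.8 and 12.8 CPM in βEedKO and 3.3, 2.82 and 1.87 CPM in wild type (log2 fold change 2.63 ± 0.40 (SE), edgeR adjusted p = 0.00397). Pde5a had 43 and 68.4 CPM in βEedKO and 279, 223 and 217 CPM in wild type (log2 fold change -2.11 ± 0.34 (SE), edgeR adjusted p = 0.00493). Pde5a was not called without βEedKO replicate 2 (0.0605) and with library size alone (0.0775). Pde3b, which lowers cyclic AMP in β cells, had 54.5 and 61 CPM in βEedKO and 125, 139 and 129.7 CPM in wild type (log2 fold change -1.18 ± 0.23 (SE), edgeR adjusted p = 0.0128). Pde3b was not called without βEedKO replicate 2 (0.128), without βEedKO replicate 3 (0.081), without wild-type replicate 3 (0.0522), with library size alone (0.289) and with block and library size alone (0.0876). Each of these enzymes had non-overlapping groups.

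Among receptors that tune insulin secretion, 6 of 44 tested genes were called higher and 5 lower (2 to 3 higher and 2 to 5 lower without 1 library), with a median log2 fold change of 0.56 (0.12 without βEedKO replicate 2, 0.87 without wild-type replicate 2 and 0.22 without wild-type replicate 3). Lepr, the leptin receptor, had 17.6 and 15 CPM in βEedKO and 2.64, 1.37 and 2.25 CPM in wild type (log2 fold change 2.98 ± 0.36 (SE), edgeR adjusted p = 0.00137), and Crhr2, which binds urocortins, had 6.59 and 8.29 CPM in βEedKO and 1.1, 0.763 and 1.24 CPM in wild type (log2 fold change 2.85 ± 0.42 (SE), edgeR adjusted p = 0.00382). Their wild-type levels were low in all 3 libraries. Glp1r, the GLP-1 receptor, had 12.8 and 25.3 CPM in βEedKO and 48, 225 and 191 CPM in wild type (log2 fold change -3.02 ± 0.72 (SE), edgeR adjusted p = 0.0341), and wild-type replicate 2 was well below the other 2. Glp1r was not called without βEedKO replicate 2 (0.232), without βEedKO replicate 3 (0.122), without wild-type replicate 3 (0.11), without wild-type replicate 4 (0.0902), with library size alone (0.0884) and with the 25-week libraries alone (0.062). Gipr, the receptor of the other incretin hormone, had 125 and 113 CPM in βEedKO and 164, 196 and 185 CPM in wild type and did not pass (log2 fold change -0.61 ± 0.61 (SE), edgeR adjusted p = 0.649).

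Single genes of glucose uptake and phosphorylation changed, while the share of metabolic genes called was near that of all genes. Over 12 lists of metabolic genes 364 of 380 counted genes passed the expression filter, and 13 were called higher and 12 lower (6.87%, against 6.6% of all genes), and the counts were 8 and 8 without βEedKO replicate 2, 7 and 6 without βEedKO replicate 3, 11 and 12, 7 and 8 and 8 and 8 without wild-type replicates 2, 3 and 4, and 11 and 13 with the replicate block. In the glycolysis list, which starts at glucose uptake, 3 of 33 tested genes were called higher and 2 lower (2 higher and 0 to 3 lower without 1 library), with a median log2 fold change of 0.32 (0.06 without βEedKO replicate 3). Slc2a2 (ENSMUSG00000027690.13, chromosome 3 from 28697903 to 28731359), the high-capacity glucose transporter GLUT2 of mouse β cells, had 127 and 115 CPM in βEedKO and 1001, 905 and 788 CPM in wild type (log2 fold change -2.89 ± 0.56 (SE), edgeR adjusted p = 0.0134). Slc2a2 was not called without βEedKO replicate 2 (0.0998) and without βEedKO replicate 3 (0.118). Slc2a3 (ENSMUSG00000003153.10, chromosome 6 from 122727809 to 122801640), the high-affinity transporter GLUT3 of neurons, had 50.9 and 55.7 CPM in βEedKO and 9.25, 1.68 and 2.1 CPM in wild type (log2 fold change 3.72 ± 0.64 (SE), edgeR adjusted p = 0.00748). Wild-type replicate 2 was the highest of its group, and βEedKO lay above it. Hk1 (ENSMUSG00000037012.18, chromosome 10 from 62268855 to 62379908), a high-affinity hexokinase that β cells normally hold low, had 41 and 49.8 CPM in βEedKO and 10.3, 5.72 and 6.53 CPM in wild type (log2 fold change 2.61 ± 0.33 (SE), edgeR adjusted p = 0.00184). G6pc2 (ENSMUSG00000005232.11, chromosome 2 from 69211073 to 69227841), a glucose phosphatase of islets, had 96.8 and 145 CPM in βEedKO and 2112, 1257 and 1135 CPM in wild type (log2 fold change -3.63 ± 0.48 (SE), edgeR adjusted p = 0.00222). The lowest wild-type library was several times the higher βEedKO library.

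Downstream, Pcx, the pyruvate carboxylase that feeds the citrate cycle, had 39 and 14.6 CPM in βEedKO and 121, 172 and 169 CPM in wild type (log2 fold change -2.52 ± 0.41 (SE), edgeR adjusted p = 0.00541). Hadh, an enzyme of fatty acid oxidation that also restrains insulin release, had 113 and 86.9 CPM in βEedKO and 672, 518 and 466 CPM in wild type (log2 fold change -2.47 ± 0.34 (SE), edgeR adjusted p = 0.00268). For both genes each βEedKO library was below each wild-type library. Mlxipl, the glucose-responsive factor ChREBP, had 47.6 and 79.9 CPM in βEedKO and 455, 582 and 575 CPM in wild type (log2 fold change -3.08 ± 0.70 (SE), edgeR adjusted p = 0.0273). Mlxipl was not called without βEedKO replicate 2 (0.2), without βEedKO replicate 3 (0.12), without wild-type replicate 3 (0.0798), without wild-type replicate 4 (0.0719) and with library size alone (0.0695). Among nuclear genes of the respiratory chain 0 of 79 were called by edgeR, 6 had an unadjusted p under 0.05 and DESeq2 called 1, with a median log2 fold change of -0.04 (-0.35 to 0.22 without 1 library) against 0.03 over all genes. Among the mitochondrially encoded genes 0 of 13 were called by edgeR, 3 had an unadjusted p under 0.05 and DESeq2 called 3, with a median of -0.84 (-0.41 without wild-type replicate 2). Among cholesterol synthesis genes 0 of 25 were called by edgeR, 0 had an unadjusted p under 0.05 and DESeq2 called 0. Among disallowed genes, which β cells keep low and most tissues use, 6 of 31 tested genes were called, each higher (2 to 5 without 1 library), with a median log2 fold change of 1.52. Hk1 and Oat, an ornithine aminotransferase with 45.5 and 57.9 CPM in βEedKO and 9.03, 8.54 and 13.4 CPM in wild type, were the stable calls. The best known of the list, Ldha (lactate dehydrogenase) and Slc16a1 (a lactate and pyruvate carrier), had log2 fold changes of 1.64 and 1.76 and did not pass (edgeR adjusted p = 0.202 and 0.223).

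**Figure D4:**
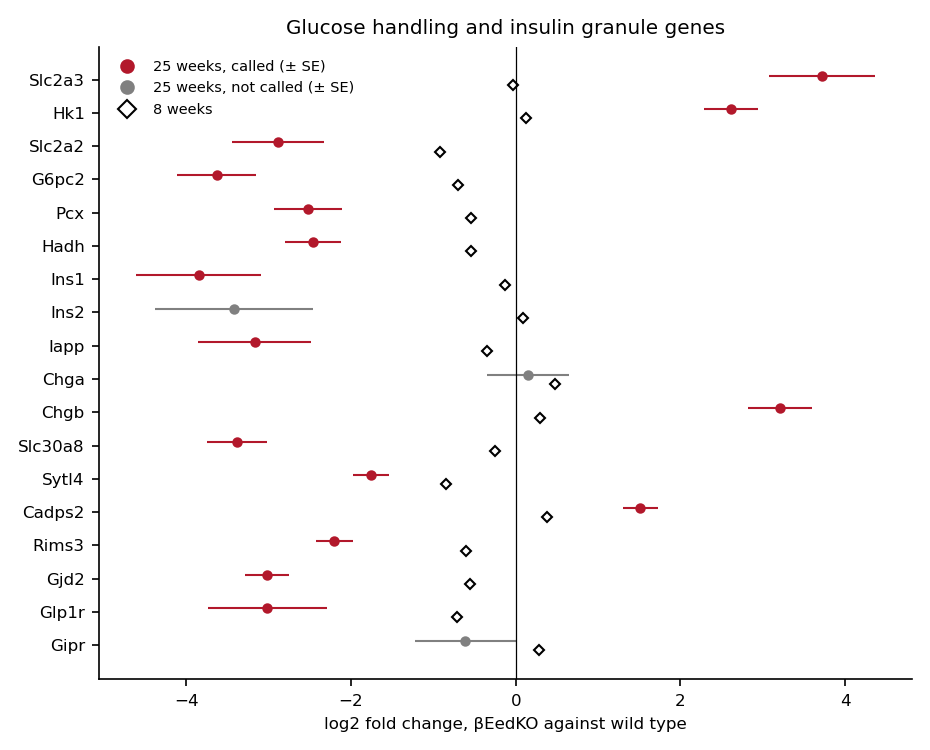
Log2 fold change of βEedKO against wild type at 25 weeks (circles with SE, red where called) and at 8 weeks (open diamonds) for 18 genes of glucose handling and insulin granules. Slc2a3, Hk1, Chgb and Cadps2 lie to the right at 25 weeks, and the 8-week values lie between -0.92 (Slc2a2) and 0.48 (Chga).

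In the list of amino acid and amine metabolism, which holds Gad1 and Gad2, 2 of 25 tested genes were called higher and 3 lower (2 higher and 2 to 3 lower without 1 library), with a median log2 fold change of -0.03 (-0.36 to 0.12 without 1 library). Maob, which degrades biogenic amines, had 32.7 and 38.9 CPM in βEedKO and 176, 164 and 151 CPM in wild type (log2 fold change -2.19 ± 0.21 (SE), edgeR adjusted p = 0.000431). Aldh1a3, a retinaldehyde dehydrogenase described in failing β cells, had 12.8 and 27.1 CPM in βEedKO and 5.06, 5.57 and 4.12 CPM in wild type (log2 fold change 2.02 ± 0.44 (SE), edgeR adjusted p = 0.0228), with βEedKO replicate 3 the highest. Aldh1a3 was not called without βEedKO replicate 3 (0.223), without wild-type replicate 2 (0.0536), without wild-type replicate 3 (0.0778), without wild-type replicate 4 (0.0918), in a fit of all 16 libraries (0.0603) and with heterozygous libraries added to the control (0.112). Among retinoid and aldehyde genes 2 of 41 tested genes were called, each higher (1 to 2 without 1 library), with a median log2 fold change of 0.39 (0.12 without βEedKO replicate 2), and among zinc transporters 2 of 23 tested genes were called higher and 1 lower (0 to 2 higher and 1 lower without 1 library), with a median log2 fold change of 0.16 (0.11 to 0.30 without 1 library).

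Transcripts of some insulin granule genes fell and those of others rose. Over 4 lists of the secretory pathway 140 of 141 counted genes passed the expression filter, and 4 were called higher and 12 lower (11.4%, against 6.6% of all genes), and the counts were 3 and 3 without βEedKO replicate 2, 3 and 3 without βEedKO replicate 3, 3 and 13, 3 and 3 and 4 and 5 without wild-type replicates 2, 3 and 4, and 6 and 12 with the replicate block, and scaling by library size alone left 4 higher and 3 lower. Among granule genes 4 of 37 tested genes were called higher and 9 lower (3 to 4 higher and 2 to 7 lower without 1 library), with a median log2 fold change of -0.44 (-0.26 without wild-type replicate 2). Slc30a8 (ENSMUSG00000022315.3, chromosome 15 from 52295553 to 52335798), the transporter that fills granules with the zinc of insulin crystals, had 65.5 and 95.9 CPM in βEedKO and 873, 862 and 794 CPM in wild type (log2 fold change -3.38 ± 0.36 (SE), edgeR adjusted p = 0.000715). Sytl4, the granule adaptor granuphilin, had 67.5 and 82.6 CPM in βEedKO and 256, 279 and 226 CPM in wild type (log2 fold change -1.76 ± 0.22 (SE), edgeR adjusted p = 0.00173). Sytl4 was not called with library size alone (0.0798). Iapp, which is packed with insulin, had 1911 and 2137 CPM in βEedKO and 29197, 13884 and 11602 CPM in wild type (log2 fold change -3.17 ± 0.69 (SE), edgeR adjusted p = 0.0227). Iapp was not called without βEedKO replicate 2 (0.126), without βEedKO replicate 3 (0.099), without wild-type replicate 3 (0.0518), with the replicate block (0.0963), with block and library size alone (0.0946) and with the 25-week libraries alone (0.107). The granins, acidic proteins that help granules form, went apart. Chga (ENSMUSG00000021194.5, chromosome 12 from 102554969 to 102565028) had 13446 and 13685 CPM in βEedKO and 13193, 12804 and 10748 CPM in wild type and did not pass (log2 fold change 0.15 ± 0.49 (SE), edgeR adjusted p = 0.912). Chgb (ENSMUSG00000027350.8, chromosome 2 from 132781278 to 132795079) had 7770.3 and 11445 CPM in βEedKO and 1190.0, 1056 and 879 CPM in wild type (log2 fold change 3.21 ± 0.39 (SE), edgeR adjusted p = 0.00139). The lower βEedKO library was more than 6 times the highest wild-type library. Nnat (ENSMUSG00000067786.16, chromosome 2 from 157560078 to 157562522), an imprinted membrane protein that aids insulin processing in the endoplasmic reticulum, had 384 and 245 CPM in βEedKO and 28.4, 29.7 and 26.4 CPM in wild type (log2 fold change 3.48 ± 0.25 (SE), edgeR adjusted p = 0.00017). Cadps2, a priming factor of dense-core vesicles, had 31.5 and 35.5 CPM in βEedKO and 11, 12.2 and 11.9 CPM in wild type (log2 fold change 1.51 ± 0.21 (SE), edgeR adjusted p = 0.00264). Nnat and Cadps2 kept all βEedKO libraries above wild type.

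The endoplasmic reticulum held few called genes, and for translocation and folding 1 of 41 tested genes was called, lower (0 to 1 without 1 library), with a median log2 fold change of -0.23 (-0.35 to -0.12 without 1 library). Ero1lb, the oxidase that forms disulfide bonds of proinsulin, had 471 and 228 CPM in βEedKO and 1369.7, 1698 and 1623 CPM in wild type (log2 fold change -2.16 ± 0.38 (SE), edgeR adjusted p = 0.0078). Ero1lb was not called without βEedKO replicate 3 (0.0613). In the list of the unfolded protein response and degradation 1 of 22 tested genes was called, lower (0 to 4 without 1 library), with a median log2 fold change of -0.55, and among vesicle coats 1 of 40 tested genes was called, lower (0 to 1 without 1 library), with a median log2 fold change of -0.17 (-0.27 to -0.10 without 1 library).

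Housekeeping lists held few calls. Over 11 lists of growth, stress and basic cell functions 345 of 351 counted genes passed the expression filter, and 11 were called higher and 2 lower (3.77%, against 6.6% of all genes), and the counts were 7 and 1 without βEedKO replicate 2, 4 and 0 without βEedKO replicate 3, 12 and 13, 5 and 0 and 7 and 1 without wild-type replicates 2, 3 and 4, and 12 and 8 with the replicate block. Among ribosomal proteins 0 of 79 were called by edgeR, 0 had an unadjusted p under 0.05 and DESeq2 called 0, and among proteasome subunits 0 of 37 were called by edgeR, 0 had an unadjusted p under 0.05 and DESeq2 called 0. Among cell cycle and mitosis genes 1 of 46 tested genes was called, higher (0 without 1 library), with a median log2 fold change of 0.52 (0.81 without βEedKO replicate 2, 0.24 without βEedKO replicate 3 and 0.78 without wild-type replicate 2). Cdkn2a (ENSMUSG00000044303.6, chromosome 4 from 89274471 to 89294653), whose products p16 and p19 arrest the cell cycle and which is a known PRC2 target, had 19.1 and 24.5 CPM in βEedKO and 0.66, 0.381 and 0.233 CPM in wild type (log2 fold change 5.81 ± 0.45 (SE), edgeR adjusted p = 0.00017). It was the 1 gene called of 15 cyclin D, Cdk and Cdk inhibitor genes. Phlda3, a p53 target that restrains Akt signalling, had 17.6 and 20.9 CPM in βEedKO and 3.08, 4.73 and 3.42 CPM in wild type (log2 fold change 2.35 ± 0.30 (SE), edgeR adjusted p = 0.00187). Phlda3 was not called in a fit of all 16 libraries (0.0917). Epas1, the hypoxia factor HIF-2α, had 157 and 182 CPM in βEedKO and 50.9, 63.9 and 64.6 CPM in wild type (log2 fold change 1.5 ± 0.23 (SE), edgeR adjusted p = 0.00403). Both genes kept the groups apart. Among immediate-early genes, which respond within minutes to stimulation or handling, 0 of 24 were called by edgeR, 2 had an unadjusted p under 0.05 and DESeq2 called 2. Without wild-type replicate 2, 5 of them were called lower by edgeR, with a median of -1.81. The median of the list was -1.27 (-0.81 without wild-type replicate 4), and its summed level was 3233 and 3001 CPM in βEedKO and 2018, 18261 and 15751 CPM in wild type.

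Imprinted genes, expressed from 1 parental allele and often silenced after birth, held many rises, and 10 of 28 tested genes were called, each higher (6 to 9 without 1 library), with a median log2 fold change of 1.08. The 6 stable calls were Dlk1, Nnat, Mest, Igf2, Sgce and Ndn. Mest had 43.2 and 122 CPM in βEedKO and 10.1, 6.86 and 7.85 CPM in wild type (log2 fold change 3.33 ± 0.47 (SE), edgeR adjusted p = 0.00295), with βEedKO replicate 3 well above replicate 2. Sgce and Ndn rose by 2.07 and 1.63 on the log2 scale. Dlk1 lies on chromosome 12, Igf2 and Ndn on chromosome 7, Mest and Sgce on chromosome 6 and Nnat on chromosome 2. The counts do not tell the parental alleles apart. Over all 4 chromatin lists 77 of 99 counted genes passed the expression filter, and 11 were called higher and 1 lower (15.6%, against 6.6% of all genes), and the counts were 9 and 0 without βEedKO replicate 2, 6 and 0 without βEedKO replicate 3, 10 and 2, 7 and 0 and 8 and 0 without wild-type replicates 2, 3 and 4, and 10 and 0 with the replicate block. Among PRC2 subunits and cofactors 1 of 14 tested genes was called, higher (0 to 1 without 1 library), with a median log2 fold change of -0.22 (-0.32 to 0.02 without 1 library). The called gene, Epop, whose product binds PRC2, had 3.6 and 6.39 CPM in βEedKO and 0.22, 0.534 and 0.311 CPM in wild type (log2 fold change 3.7 ± 0.64 (SE), edgeR adjusted p = 0.00781). Epop was not called without βEedKO replicate 3 (0.0644). Among PRC1 subunits 1 of 23 tested genes was called, lower (0 to 1 without 1 library), with a median log2 fold change of -0.06 (-0.15 to -0.02 without 1 library). Among germline genes, a class that chromatin repression keeps off in somatic cells, 0 of 12 were called by edgeR, 2 had an unadjusted p under 0.05 and DESeq2 called 1.

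Markers of other islet and pancreas cells were looked up as a group of 8 lists, in which 140 of 140 counted genes passed the expression filter, and 19 were called higher and 4 lower (16.4%, against 6.6% of all genes); the counts were 7 and 0 without βEedKO replicate 2, 5 and 0 without βEedKO replicate 3, 13 and 2, 6 and 0 and 8 and 1 without wild-type replicates 2, 3 and 4, and 15 and 4 with the replicate block. The hormone genes of α, δ and PP cells did not pass. Sst had 1152 and 1249 CPM in βEedKO and 2032, 1293 and 1114 CPM in wild type and Ppy had 2206 and 4147 CPM in βEedKO and 2422, 1622 and 713 CPM in wild type, with adjusted p of 0.754, 0.746 and 0.316 from edgeR for Gcg, Sst and Ppy. In the list of α, δ, PP and ε cell markers 5 of 18 tested genes were called higher and 2 lower (0 to 4 higher and 0 to 1 lower without 1 library), with a median log2 fold change of 0.59, and none of the calls was stable. Gc, a vitamin D carrier of α cells, and the α cell homeobox gene Irx2 were among the rises. Gc had 264 and 253 CPM in βEedKO and 101, 50.6 and 43.8 CPM in wild type (log2 fold change 1.99 ± 0.37 (SE), edgeR adjusted p = 0.0107) and Irx2 32.1 and 32.8 CPM in βEedKO and 11.2, 7.63 and 5.21 CPM in wild type (log2 fold change 2.04 ± 0.38 (SE), edgeR adjusted p = 0.0109). Gc was not called without βEedKO replicate 2 (0.0581), without βEedKO replicate 3 (0.0574) and without wild-type replicate 3 (0.0552). Irx2 was not called without βEedKO replicate 2 (0.056), without βEedKO replicate 3 (0.064) and without wild-type replicate 3 (0.0547). The falls were Slc7a2, a carrier of cationic amino acids, with 104 and 85.1 CPM in βEedKO and 275, 468 and 393 CPM in wild type (log2 fold change -2.0 ± 0.50 (SE), edgeR adjusted p = 0.0399), and Dpp10, an accessory subunit of potassium channels, with 8.09 and 7.94 CPM in βEedKO and 17.6, 17.3 and 12.7 CPM in wild type (log2 fold change -0.98 ± 0.25 (SE), edgeR adjusted p = 0.0422). Slc7a2 was not called without βEedKO replicate 2 (0.176), without βEedKO replicate 3 (0.232), without wild-type replicate 3 (0.129), without wild-type replicate 4 (0.098) and with library size alone (0.103). Dpp10 was not called without βEedKO replicate 2 (0.202), without βEedKO replicate 3 (0.214), without wild-type replicate 2 (0.0745), without wild-type replicate 3 (0.134), without wild-type replicate 4 (0.053), with library size alone (0.37), with block and library size alone (0.152), with the 25-week libraries alone (0.0775), in a fit of all 16 libraries (0.0642) and without the expression filter (0.121). Ins2 had 9447 and 11295 CPM in βEedKO and 141591, 108486 and 82724 CPM in wild type (edgeR adjusted p = 0.0626), and the call of Ins1 (0.0141) was lost without βEedKO replicate 2 (0.0815), without βEedKO replicate 3 (0.0536), with the replicate block (0.108), with block and library size alone (0.0768) and with the 25-week libraries alone (0.104). Reads of Ins1 and Ins2, which are near-identical genes, may have been shared.

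The levels of the defining acinar genes differed between libraries of the same group. Cpa1 had 39868 and 1174 CPM in βEedKO and 10778, 3683 and 26378 CPM in wild type, and Prss2, Cela2a, Pnlip and Ctrb1 showed the same order of libraries. In the acinar list 2 of 26 tested genes were called, each higher (1 to 2 without 1 library), with a median log2 fold change of 0.86 (-3.17 without βEedKO replicate 2, 1.8 without βEedKO replicate 3, 0.38 without wild-type replicate 3 and 1.78 without wild-type replicate 4) and 0.03 with the acinar level as a covariate. The stable call was a trypsinogen gene, Prss1 (ENSMUSG00000062751.5, chromosome 6 from 41458932 to 41463786), with 228 and 158 CPM in βEedKO and 1.1, 0.229 and 1.48 CPM in wild type (log2 fold change 7.72 ± 0.71 (SE), edgeR adjusted p = 0.000316). Trypsinogen genes are near-identical copies, so that reads may be split or shared between them. Among duct genes 5 of 14 tested genes were called, each higher (1 to 3 without 1 library), with a median log2 fold change of 1.66. Spp1, osteopontin, had 460.3 and 303 CPM in βEedKO and 59.2, 28.8 and 55.7 CPM in wild type (log2 fold change 3.0 ± 0.49 (SE), edgeR adjusted p = 0.00537), and Krt19 had 22.5 and 79.7 CPM in βEedKO and 5.06, 1.98 and 5.6 CPM in wild type (edgeR adjusted p = 0.0334). Krt19 was not called without βEedKO replicate 3 (0.258), without wild-type replicate 2 (0.0733), without wild-type replicate 3 (0.14), without wild-type replicate 4 (0.0902), with the replicate block (0.133) and with the acinar covariate (0.0568). Cftr and Muc1, also of ducts, did not pass (edgeR adjusted p = 0.317 and 0.713), and the duct list summed to 1169 and 1354 CPM in βEedKO and 645, 688 and 922 CPM in wild type.

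Lists of vessel, nerve sheath and immune markers held few calls. Among endothelial markers 1 of 17 tested genes was called, lower (0 to 1 without 1 library), with a median log2 fold change of 0.19 (-0.04 to 0.30 without 1 library). Pecam1, Cdh5 and Plvap of endothelium had log2 fold changes of 0.71, 0.65 and 0.21 (edgeR adjusted p = 0.0679, 0.505 and 0.686). Pdgfra of fibroblasts had 13.1 and 6.2 CPM in βEedKO and 1.1, 1.91 and 1.09 CPM in wild type (log2 fold change 2.79 ± 0.55 (SE), edgeR adjusted p = 0.0149). Pdgfra was not called without βEedKO replicate 2 (0.149), without wild-type replicate 4 (0.0722), with the replicate block (0.0906) and in a fit of all 16 libraries (0.095). Rgs5 of pericytes had a log2 fold change of 0.56 and did not pass (edgeR adjusted p = 0.203). Among Schwann and glial markers 1 of 12 tested genes was called, higher (1 without 1 library), with a median log2 fold change of 0.99 (-0.02 without βEedKO replicate 2 and 0.59 without wild-type replicate 3). The call, which was stable, was Gfra3, a receptor of the GDNF family, with 32.8 and 26.5 CPM in βEedKO and 3.52, 2.44 and 1.87 CPM in wild type (log2 fold change 3.54 ± 0.37 (SE), edgeR adjusted p = 0.000615). Sox10 of Schwann cells had a log2 fold change of 1.83 (edgeR adjusted p = 0.501). Among macrophage markers 1 of 18 tested genes was called, higher (0 without 1 library), with a median log2 fold change of 1.06 (0.33 without βEedKO replicate 2). Adgre1 and C1qa had log2 fold changes of 1.33 and 0.37 (adjusted p = 0.519 and 0.585), and the macrophage list summed to 631 and 423 CPM in βEedKO and 295, 172 and 146 CPM in wild type. Among T and B cell markers 1 of 18 tested genes was called, lower (0 to 1 without 1 library), with a median log2 fold change of 2.0 (3.77 without wild-type replicate 2). Of the 18, 17 had a fold change above 0 and 11 had both βEedKO libraries above wild type (22.9% of all genes), and the list summed to 358 and 98.4 CPM in βEedKO and 264, 62.9 and 59.5 CPM in wild type. The gene called lower, and the only one with a fold change below 0, was the B cell gene Cd79a, which had 9.44 and 5.85 CPM in βEedKO and 28.4, 21.5 and 22.8 CPM in wild type (edgeR adjusted p = 0.0215). The call of Cd79a was lost without βEedKO replicate 2 (0.0523), without βEedKO replicate 3 (0.173), without wild-type replicate 3 (0.0552) and without wild-type replicate 4 (0.0574). With the acinar level of each library as a covariate, 776 genes were called higher and 402 lower over all genes, and 276 of the 276 stable calls passed.

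Over 4 lists of immune and inflammatory genes 154 of 192 counted genes passed the expression filter, and 7 were called higher and 1 lower (5.19%, against 6.6% of all genes), and the counts were 3 and 0 without βEedKO replicate 2, 4 and 1 without βEedKO replicate 3, 10 and 1, 3 and 0 and 3 and 0 without wild-type replicates 2, 3 and 4, and 9 and 1 with the replicate block. Among interferon-induced genes 0 of 36 were called by edgeR, 0 had an unadjusted p under 0.05 and DESeq2 called 0. The list's median log2 fold change was 0.60 (0.04 without βEedKO replicate 3), and 13 had both βEedKO libraries above wild type. Over the 4 lists the median was 0.97 (0.53 without βEedKO replicate 3), against 0.03 over all genes. Of the 154, 134 had a fold change above 0, against 9655 of all 18685. Both βEedKO libraries lay above wild type in 65 of them, and in 22.9% of all genes. Among chemokines and cytokines 2 of 60 tested genes were called, each higher (2 without 1 library), with a median log2 fold change of 1.52 (0.83 without βEedKO replicate 3), and both calls were stable. Cxcl14 had 58.8 and 36.8 CPM in βEedKO and 1.32, 0.915 and 0.544 CPM in wild type (log2 fold change 5.77 ± 0.74 (SE), edgeR adjusted p = 0.00187), and Cx3cl1, fractalkine, had 80.7 and 94.1 CPM in βEedKO and 18.3, 24.9 and 24.3 CPM in wild type (log2 fold change 1.95 ± 0.23 (SE), edgeR adjusted p = 0.00128). For both genes the 2 βEedKO libraries exceeded every wild-type library. The summed macrophage markers given above were also higher in both βEedKO libraries, and their part in these rises was not tested.

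Most genes called higher started in bivalent chromatin of wild-type islets, and 52.5% of genes called lower in an active promoter state. Start sites were read against a segmentation of wild-type islet chromatin into states named by letters, in bins of 200 bp on the autosomes of GRCm38. The start site was the outermost annotated start of a gene, so that other starts of the same gene were not read. The study's annotation calls L and M bivalent, N and O related Polycomb states, and A an active promoter state. Of 827 genes called higher with a state, 592 (71.6%) started in L or M, and 28 (3.39%) in A. Of 358 called lower, 42 (11.7%) started in L or M and 188 (52.5%) in A. Over the 17948 genes tested with a state, 19% started in L or M and 36.4% in A. State M alone held 244 (29.5%) of the rises and 2 (0.559%) of the falls, against 5.03% of all. Among stable calls 163 of 207 rises (78.7%) and 5 of 61 falls (8.2%) started in L or M. State A held 6 of these rises (2.9%) and 27 of these falls (44.3%), the latter nearer the 36.4% of all genes. The Polycomb states N and O held 7.01% of the rises, 2.51% of the falls and 7.49% of all genes. Examples of the bivalent class are Gria1, Cartpt, Dlk1, Hk1 and Slc2a3, and Cdkn2a, with state B, lay outside it. Gjd2, Slc30a8, Hadh and Pcx were in state A. Chgb rose from state A. Gad1 fell and had state O at its outermost annotated start, which lies upstream of the RefSeq start used for its sequence above. The state at that RefSeq start was not read. The segmentation averages replicates and includes marks measured elsewhere, and no test was made, since genes that share a state are not replicates. The study describes L and M as transcriptionally quiescent. A gene that passed the expression filter through βEedKO alone could only be higher, so these shares are descriptions of the genes that passed.

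**Figure D5:**
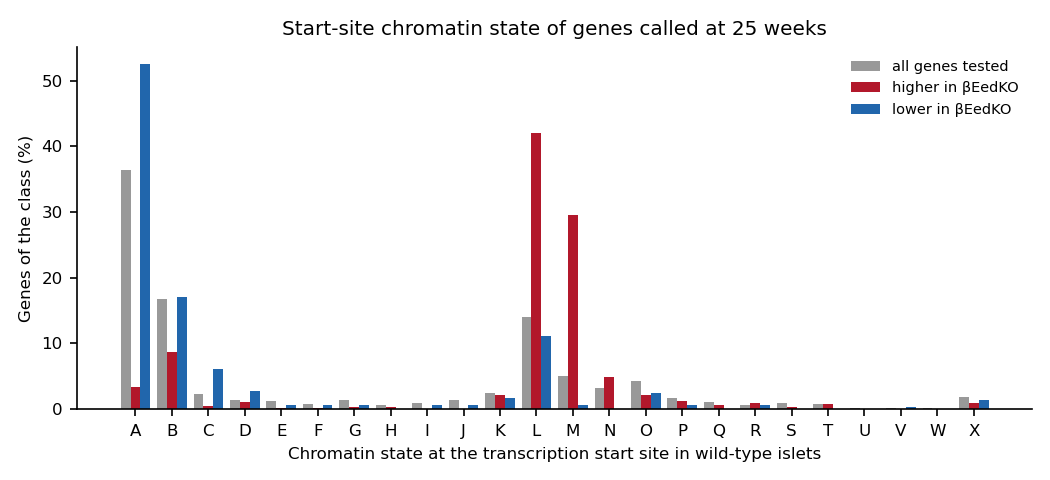
Share of genes (%) with each chromatin state at the start site in wild-type islets, for all 17948 genes tested with a state (grey), 827 called higher (red) and 358 called lower (blue) in βEedKO at 25 weeks. Rises peak at L (42.1%) and M (29.5%), and falls at A (52.5%). Genes that passed the expression filter through βEedKO alone could only be higher.

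Promoter composition is given as a description. In the RefSeq window of 250 bases before to 50 bases after the start, the ratio of observed to expected CG had a median of 0.638 (quartiles 0.402 and 0.82) over 594 genes called higher. It was 0.696 over 292 genes called lower and 0.725 over all 12882 genes tested with a window. A dense window, with a ratio of at least 0.6 and at least 50% G and C, was found in 53.4% of rises, 61.0% of falls and 61.8% of all. RefSeq gives 1 window per gene here, and 69.4% of the rises and 77.2% of the falls had one.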

How the data were processed

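The libraries were made from mRNA of whole islets and sequenced as 2 reads of 50 bases. Per the labels and the study's methods, the authors aligned reads with TopHat2 (2.0.13) to GRCm38 and deposited counts per gene from featureCounts (Subread 1.5.0-p1) on Gencode M9; strand use is not given in the sources used here. Their deposited chromatin segmentation (a letter for each bin of 200 bp, from EpicSeg) was read at the start site and, as an alternative, as the most common letter over the gene body. Of 47937 counted genes, 47224 matched a symbol and position and 713 did not. Files of the series' other assays were not used here.

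Counts were tested with edgeR (4.0.16, R 4.3.3): filterByExpr, TMM scaling and the quasi-likelihood test in 1 fit of the 11 wild-type and βEedKO libraries, which gives 4 groups and 7 residual degrees of freedom. P-values were adjusted by Benjamini-Hochberg over all 18685 genes, and a call is an adjusted p under 0.05. The SE of a log2 fold change was taken from its size and the F statistic. edgeR ran on limma (3.58.1), and DESeq2 (1.42.0) was an alternative. The code was tested on simulated counts in which 200 genes were changed at 25 weeks. Of genes changed by a log2 fold of 1, 2 and 3, it recovered 2.9%, 31.8% and 72.7%. Of its 78 calls, 7 were false. A list with few or no calls may thus hold changes too small to pass. No 2 libraries agreed within sampling noise. Library totals of 4645393 to 17308262 limit precision, and floors (3 reads) and counting intervals (95%) cover counting error only.

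Replicate numbers are shared between groups but no label says that they mark a litter, batch or day. Deviations of same-numbered libraries correlated at 0.18 and 0.26 at 25 weeks and at 0.46 and 0.17 at 8 weeks. Those of libraries with different numbers ranged from -0.53 to 0.45 at 8 weeks, so that the values do not show a pairing by number. At 25 weeks the 2 βEedKO deviations mirror each other, which leaves 1 independent contrast. The fit with the number as a block was an alternative.

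The 75 gene lists and the genes named were chosen with earlier results of these data known. The rule for named genes took the 10 largest stable changes each way (a fixed set of transcription factor families such as Hox and Pax, mature β cell genes and predicted genes set aside), up to 3 stable rises and falls per list by size, up to 2 calls of smallest adjusted p where a list had no stable call in a direction, and hormone, glucose and cell type marker genes, from lists of channels, adhesion, signalling, metabolism, secretion, growth, chromatin, cell type and immune genes. Of those that were not stable, the ones printed were chosen after their values were seen, as were the sequences and the genes named in the closing section only. Genes of chromosome 18 and a few other genes that the rule took are not reported here. Acinar alternatives were added after seeing the data. Promoters are from RefSeq (GRCm38.p6) and matched 12882 of the tested genes by Ensembl gene ID, or by symbol where that gave none. Of several RefSeq starts, the one nearest the outermost annotated start was taken.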

Additional observations from a re-analysis of the deposited data

Results flagged for a closer look

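For 13 named genes the effect of βEedKO differed between the ages in a test of the difference itself (log2 fold change at 25 weeks minus that at 8 weeks, edgeR adjusted over all genes). Falls were deeper at 25 weeks for Trpm5, the calcium-activated cation channel, by a difference of -4.63 (edgeR adjusted p = 0.00614), and for Cib3, by -5.44 (edgeR adjusted p = 0.00579). T2 had a difference of -5.06 (edgeR adjusted p = 0.0194) and Tmem215 of -3.24 (edgeR adjusted p = 0.0367). At 8 weeks Trpm5 had a log2 fold change of -0.96 and Cib3 of -1.22. The zinc transporter Slc30a8 had -3.14 (edgeR adjusted p = 0.0217), Ppp1r1a -3.07 (edgeR adjusted p = 0.0411), Frzb -2.79 (edgeR adjusted p = 0.0307) and Maob -1.66 (edgeR adjusted p = 0.0424). The connexin gene Gjd2 had -2.47 (edgeR adjusted p = 0.0158) and the GABA enzyme gene Gad1 -2.72 (edgeR adjusted p = 0.00967).

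Rises were larger at 25 weeks for the guidance cue Slit1 with 6.03 (edgeR adjusted p = 0.0422) and the imprinted Nnat with 2.91 (edgeR adjusted p = 0.00579). The trypsinogen Prss1 had the largest difference among the 13, 10.87 (edgeR adjusted p = 0.00373). Its 8-week log2 fold change was -3.14 and its near-identical copies can share reads. Over all genes 37 passed this test, 0.198% of those tested. With the replicate block 2 passed, and without βEedKO replicate 2 or 3 of 25 weeks 10 and 14 passed (16 and 20 without wild-type replicate 3 or 4). Of the 13 genes, Prss1 alone passed with the block, at an edgeR adjusted p of 0.0241, and Prss1 and Nnat alone passed in every fit without 1 library, at up to 0.0211 and 0.0405.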

How the results depend on the processing

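The counts of genes called higher, called lower and called for the difference between ages were 856, 378 and 37. DESeq2 gave 1333, 755 and 341, and the heterozygous libraries added to the control gave 1871, 928 and 185. All 16 libraries in the fit gave 580 lower and 90 for the difference, library size alone 79 and 11, and no expression filter 73 for the difference. The replicate block gave 2 for the difference, and with library size alone 1662 higher and 241 for the difference. Leaving out 1 library of 25 weeks gave 279 to 731 higher, 87 to 396 lower and 10 to 35 for the difference. Calls within the gene lists (225) were 360 with DESeq2, 447 with the pooled control, 405 with block and library size alone, and 87 to 211 without 1 library. The block gave 591 higher and 436 lower, with 717 of the 1234 calls kept, and all 276 stable calls pass it by definition. Read over the gene body in place of the start site, 24.4% of the genes called higher and 0.559% of those lower were in L or M, and 0 and 1.68% in A. The shares over all genes were then 3.9% in L or M and 0.852% in A. States N and O held 46.7% of the genes called higher, 2.51% of those lower and 17.3% of all by this reading. Measured as GC percent, promoters of genes called higher and lower lay 0.14 and 0.03 SD above all genes, in the observed to expected ratio 0.29 and 0.10 SD below.

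No called gene changed sign under any alternative. Among genes without a call, the log2 fold change changed sign without βEedKO replicate 2, and ranged without 1 library from -0.083 to 1.03 for Hhex, -2.70 to 2.06 for Ctrb1, -0.036 to 0.40 for Plvap, -0.11 to 0.72 for C1qa, -0.30 to 1.49 for Txnip, -1.14 to 1.91 for Muc1, -3.37 to 1.76 for Pnlip, -3.54 to 1.54 for Cpa1, -3.69 to 1.75 for Prss2 and -3.49 to 1.78 for Cela2a. With the acinar covariate it was -0.12 for Pnlip, -0.29 for Cpa1, -0.25 for Prss2 and -0.15 for Cela2a. Of the 276 stable calls, 255 passed every alternative; library size alone lost 18, all falls, and it moved the median of all genes from 0.03 to 0.27 (0.14 over the larger set of genes kept with no filter, 0.09 over those tested here, and 0.14 with block and library size alone). The causes were not tested. Leaving out a βEedKO library leaves 1, which is assumed to vary like the other groups. The 2 βEedKO libraries and the shallowest wild-type library (4645393 reads) limit low genes most.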

Other observations

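Several stable rises outside the gene lists, chosen after their values were seen, encode proteins of neurons. Slc6a5, the glycine transporter of inhibitory neurons, had 15.4 and 56.7 CPM in βEedKO and 0, 0.153 and 0 CPM in wild type, or 2 reads in wild type in all, and was 651 times the wild-type level (95% interval from counting error 179.9 to 5378), with an edgeR adjusted p = 0.00437. Slc17a6, which loads glutamate into vesicles, had 24.9 and 19 CPM in βEedKO and 0.22, 0 and 0.0777 CPM in wild type, also 2 reads in wild type, and was 321 times the wild-type level (95% interval from counting error 88.5 to 2653), with an edgeR adjusted p = 0.00187. Slc1a2, a glutamate uptake carrier, had 7.94 and 10.9 CPM in βEedKO and 0, 0.153 and 0.544 CPM in wild type. All of these were higher in both βEedKO libraries than in each wild-type library.

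Falls outside the lists, also chosen after their values were seen, included Ghr, the growth hormone receptor, with 87.2 and 59.7 CPM in βEedKO and 234, 236 and 233 CPM in wild type (log2 fold change -1.67 ± 0.25 (SE), edgeR adjusted p = 0.00365). Bace2, a protease of the β cell surface, had 47.6 and 72.6 CPM in βEedKO and 337, 270.5 and 236 CPM in wild type (log2 fold change -2.23 ± 0.30 (SE), edgeR adjusted p = 0.00251), and Papss2, which makes the sulfate donor for sulfation, had 59.6 and 188 CPM in βEedKO and 805, 774 and 683 CPM in wild type. The groups did not overlap in these 3 genes.

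Prss1 was joined by the predicted trypsinogen-like gene Gm10334, with 283 and 159.6 CPM in βEedKO and 8.37, 1.3 and 7.54 CPM in wild type, while Prss2, the trypsinogen gene of acinar cells, had 42297 and 969 CPM in βEedKO and 10089.6, 3377 and 23906 CPM in wild type and followed the acinar share of each library. Reads of such similar copies may be assigned to the wrong one, so these values are uncertain.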
